A study of Mus musculus with 6 samples.

Results

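The genes of cholesterol synthesis, transport and SREBP2 control were followed in mouse pancreatic tumor cells with and without a combined chemotherapy and immunotherapy. The 28 genes were chosen by symbol: 8 of the early mevalonate steps, 3 of the squalene steps, 9 of the late sterol steps, 4 that control SREBP2, and 4 of uptake, transport and storage. All 28 were among the 24493 genes of the deposited table and all passed the filter of at least 1 TPM in at least 2 libraries, which left 13720 genes. TPM is a transcript level scaled for gene length and to the same total in each library.

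The libraries came from clone 6419c5, a single tumor cell clone, grown as subcutaneous tumors in C57BL/6 mice and sorted back out of them before RNA extraction. There were 4 libraries of control tumors and 2 of tumors given GAFCP, which combined gemcitabine, abraxane, an agonist of CD40, and blockade of PD-1 and of CTLA-4. Gemcitabine is a nucleoside analog, abraxane is albumin-bound paclitaxel, and the antibodies act on immune cells. The comparison asks how expression in the tumor cells differed with the treatment. No source used here gives the age or number of mice, the doses, the time of sampling or the sorting gate. Nor is it stated that replicates are separate tumors, so that the p-values speak to variation among these libraries alone, possibly technical in part.

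Cells make cholesterol from acetyl-CoA through mevalonate, the isoprenoid farnesyl diphosphate, squalene and lanosterol. The transcription factor SREBP2, encoded by Srebf2, is held in the endoplasmic reticulum with its escort SCAP while sterols are plentiful, by the INSIG retention proteins. When sterols fall, SCAP carries SREBP2 to the Golgi, where proteases release its active part, which switches on the synthesis enzymes, Insig1, Stard4 and Srebf2 itself. Cholesterol taken up in lipoproteins leaves the lysosome through NPC2 and NPC1, and excess is stored as esters made by SOAT1.

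Most of the synthesis genes fell with GAFCP, while lysosomal export and ester storage genes did not. Of the 28 genes 22 were lower and 2 were higher at a limma adjusted p under 0.05, and 4 did not pass. Over all genes tested, 47.5% were called, 28.5% lower and 19.0% higher. The median log2 change, GAFCP minus control on log2(TPM + 1), was -0.70 over the 28 genes and -0.07 over all genes tested. The 10th percentile of all genes was -0.52, and 17 of the 28 genes were at or below it. Both GAFCP libraries were below all 4 controls for 23 of the 28 genes and above them for 2, against 36.9% and 24.7% of all genes. With median-of-ratios scaling the split over all genes became 3424 lower and 3460 higher, from 3909 and 2606, and the 28 genes held 22 lower and 3 higher. Without GAFCP library 1 the count over all genes was 4258 and without GAFCP library 2 it was 4313, in place of 6515, and the count of lower genes among the 28 was 20 and 22. The plot of levels by library gives every value.

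**Figure D1:**
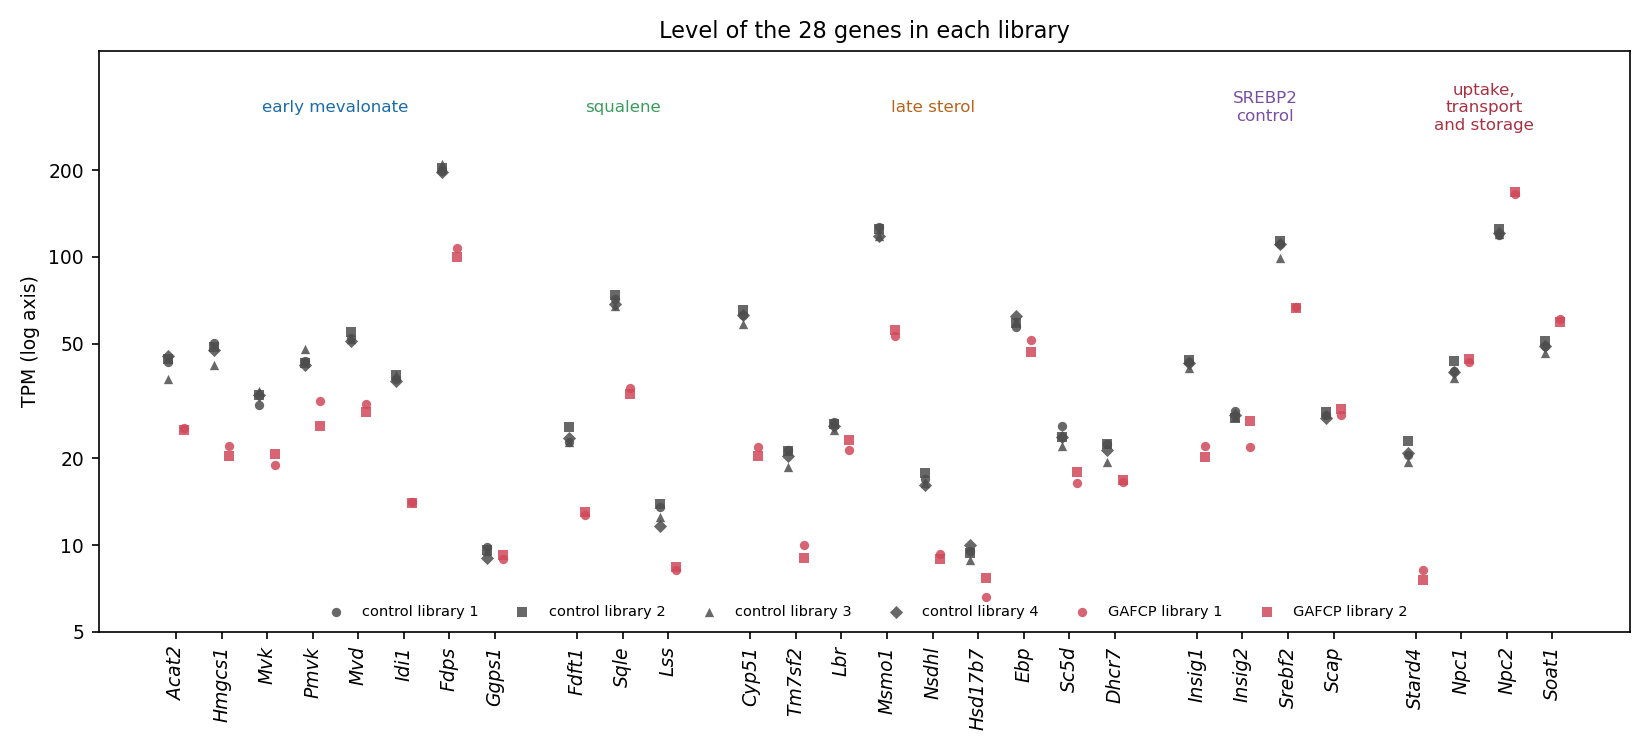
TPM (log axis) of the 28 genes in each of the 6 libraries, with control libraries in grey and GAFCP libraries in red, the marker shape giving the library number. The red points sit below all grey points for 23 genes and above them for Npc2 and Soat1.

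Immune and epithelial transcripts differed between the same libraries. All 19 macrophage and monocyte markers were higher with GAFCP, with sums of 1179.6 to 1239 TPM in controls against 3773 and 3775 TPM in the treated libraries. Csf1r, a receptor of macrophages, had a mean of 18.1 TPM in controls and of 94.7 TPM with GAFCP. All 10 pan-leukocyte markers, with Ptprc at means of 2.73 and 9.79 TPM, were also higher, with sums of 104 to 121 TPM and of 296 and 310.2 TPM. All 8 T and NK cell markers tested were higher, with sums of 5.52 to 7.93 TPM and of 40.3 and 36.0 TPM. Among 9 fibroblast and pericyte markers tested 5 were higher and 2 lower. No marker of these lists was at 0 in all 6 libraries, though the NK cell marker Ncr1 was at 0 in both GAFCP libraries. Of 10 epithelial and ductal markers 7 were lower and 1 higher, with sums of 7076 to 7471 TPM in controls against 5354 and 5388 TPM in the treated libraries. Keratin transcripts were abundant in all 6 libraries, with Krt8 at a mean of 2321 TPM in controls against 1544 TPM after treatment. Krt7, Krt8 and Krt19 were called lower, at 68.2%, 66.5% and 63.2% of their control means, while Krt18, at 95.8%, did not pass (limma adjusted p = 0.16). The adhesion molecule Epcam was at means of 12.8 TPM and 1.54 TPM. Cldn4, the epithelial marker called higher, was at 156.6% of its control mean, and Cdh1, at 92.9%, did not pass (limma adjusted p = 0.21). Fewer tumor cells in the sorted sample and less RNA of a gene in each tumor cell cannot be told apart in bulk libraries, and the part of these markers in the results below was not tested. When each library was scaled to its summed TPM of Krt7, Krt8, Krt18 and Krt19, the median change over all genes went from -0.07 to 0.33. On that scale 7.15% of all genes tested were called lower and 65.5% higher, and 15 of the 28 genes were lower and 8 higher, with a median of -0.27, which is below the all-gene median there. The genes called higher on it were Npc2, Soat1, Npc1, Scap, Ggps1, Insig2, Lbr and Ebp, and the last 4 had negative changes on TPM. Set against the all-gene median of that scale, Cyp51 lay at -1.43, Lbr at -0.13, Ebp at -0.18, Insig2 at -0.11 and Ggps1 at 0.01.

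**Figure D2:**
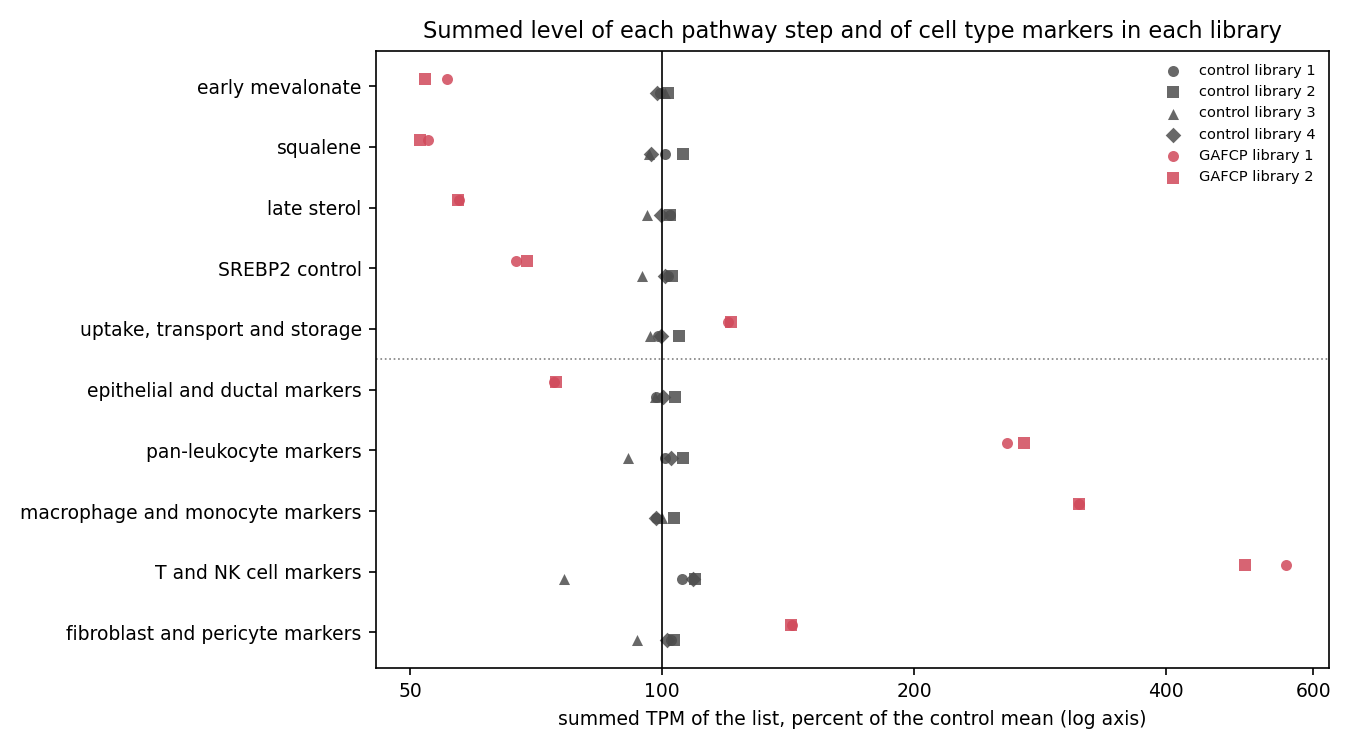
Summed TPM of each pathway step (above the dotted line) and of each marker list (below it) as a percentage of the control mean (log axis), with 1 point per library. With GAFCP the sums of the 3 synthesis steps, of SREBP2 control and of the epithelial markers lie below 100. Those of transport and storage and of the immune markers lie above 100. A sum follows its most abundant genes: keratins among the epithelial markers, Srebf2 in SREBP2 control and Npc2 in transport and storage. Single genes of these lists differed: Cldn4 rose, Scap did not pass and Stard4 fell.

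Promoter sequence bears on this group because SREBP2 is known to act at sterol regulatory elements together with NF-Y, which binds CCAAT boxes. RefSeq windows on GRCm38.p6, the assembly also called mm10, were matched by symbol for 23 of the 28 genes, and the 250 bases before the most upstream start were searched on both strands. Insig2 and Dhcr7 had 3 start windows each, and Pmvk and Scap 2. Which start these cells used was not tested. For 19 of the 23 windows a stretch just after the start was found in a transcript of the gene. CCAAT (or ATTGG) occurred in 20 of the 23 windows and in 36.9% of the windows of 10402 tested genes. It occurred in 16 of the 18 matched genes that fell and in 4 of the 5 matched genes that did not. The sterol regulatory element, spelled TCACNCCAC, occurred in 1 of the 23 windows, that of Hmgcs1, and in 0.981% of the windows of tested genes. The motifs did not overlap in Hmgcs1, and other spellings of either were not searched. The windows of Hmgcs1 and Mvd are shown as promoters of enzymes that fell, those of Insig1 and Insig2 as a pair of which 1 passed the test, and that of Lbr as the enzyme with the smallest called fall. Capitals mark the CCAAT boxes and the sterol regulatory element, and each sequence runs 5′ to 3′ in the direction of transcription. None overlaps an exon of GENCODE M21, for which the Insig1 window was shortened to 201 bases, while the Lbr window lies inside the annotated span of Lbr (chromosome 1, 181815335 to 181843046).
Hmgcs1, chr13:119690101-119690350, plus strand: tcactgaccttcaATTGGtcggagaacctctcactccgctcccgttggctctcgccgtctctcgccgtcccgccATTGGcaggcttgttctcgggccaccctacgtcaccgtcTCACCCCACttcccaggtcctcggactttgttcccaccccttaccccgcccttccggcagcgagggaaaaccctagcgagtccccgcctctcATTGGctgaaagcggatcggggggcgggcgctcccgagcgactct
Mvd, chr8:122443423-122443672, minus strand: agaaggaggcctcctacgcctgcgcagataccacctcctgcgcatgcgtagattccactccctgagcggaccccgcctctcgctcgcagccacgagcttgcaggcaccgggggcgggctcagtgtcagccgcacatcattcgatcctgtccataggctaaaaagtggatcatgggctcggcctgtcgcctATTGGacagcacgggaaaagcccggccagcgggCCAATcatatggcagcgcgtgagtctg
Insig1, chr5:28071162-28071362, plus strand: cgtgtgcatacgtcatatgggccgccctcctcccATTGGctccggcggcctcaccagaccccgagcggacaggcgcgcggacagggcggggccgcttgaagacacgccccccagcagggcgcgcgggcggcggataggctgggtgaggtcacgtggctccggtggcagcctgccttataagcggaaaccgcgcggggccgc
Insig2, chr1:121332590-121332839, minus strand: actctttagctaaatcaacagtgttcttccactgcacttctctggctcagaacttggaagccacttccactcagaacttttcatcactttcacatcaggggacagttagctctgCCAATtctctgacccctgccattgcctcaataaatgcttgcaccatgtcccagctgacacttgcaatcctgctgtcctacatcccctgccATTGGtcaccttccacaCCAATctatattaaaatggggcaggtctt
Lbr, chr1:181842402-181842651, minus strand: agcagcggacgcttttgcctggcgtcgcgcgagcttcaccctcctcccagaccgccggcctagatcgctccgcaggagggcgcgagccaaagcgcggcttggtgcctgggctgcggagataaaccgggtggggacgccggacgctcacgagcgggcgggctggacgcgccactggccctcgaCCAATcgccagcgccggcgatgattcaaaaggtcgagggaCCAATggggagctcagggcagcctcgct

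Of the 8 early mevalonate genes 7 fell, beside 28.5% of all genes tested. Their median log2 change was -0.76, with a range from -1.38 to -0.06. Idi1, the isomerase that makes the reactive isoprenoid unit, fell most in this step (chromosome 13, 8885501 to 8892451, mm10). Its levels were 37.6, 39.0, 38.9 and 37.2 TPM in control libraries 1 to 4 and 14.1 and 14.0 TPM in GAFCP libraries 1 and 2. The groups lay far apart, GAFCP being at 36.8% of the control mean, the log2 change being -1.38 ± 0.05 (SE, adjusted p = 3.6e-07 by limma). Hmgcs1, which joins acetoacetyl-CoA and acetyl-CoA into the precursor of mevalonate, lies on chromosome 13 from 119690379 to 119708260. It was at 50.1, 48.8, 42.1 and 47.6 TPM in the control libraries and at 22.2 and 20.4 TPM after GAFCP. Control library 3 was the lowest control and was still well above both treated libraries, and the log2 change was -1.11 ± 0.08 (SE; limma adjusted p = 1.5e-05). Fdps, the farnesyl diphosphate synthase, had the highest level of the 28 genes in controls. It was at 199.1, 204.4, 210.4 and 197.1 TPM in the control libraries and at 107.2 and 100.3 TPM after GAFCP. Both treated libraries lay far below the lowest control, at 51.1% of the control mean on average, with the log2 change being -0.96 ± 0.04 (SE, adjusted p = 1.6e-06 by limma).

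The other enzymes of this step that fell had smaller log2 changes. Acat2, the cytosolic thiolase that opens the pathway, had a mean of 42.6 ± 3.42 TPM (SD, n = 4) in control libraries and of 25.2 ± 0.342 TPM (SD, n = 2) after GAFCP. Mevalonate kinase, Mvk, averaged 32.8 ± 1.52 and 19.8 ± 1.24 TPM (SD), and phosphomevalonate kinase, Pmvk, 44.1 ± 2.66 and 28.8 ± 4.18 TPM (SD). Mvd, the decarboxylase that follows them, averaged 52.6 ± 1.55 and 29.9 ± 1.27 TPM (SD). The log2 changes of these enzymes were -0.73, -0.70, -0.61 and -0.79 in that order, all called. The exception in this step was Ggps1, which turns farnesyl diphosphate into geranylgeranyl diphosphate for protein prenylation and so leads away from sterols. Ggps1 was at 9.86, 9.63, 9.51 and 9.01 TPM in the control libraries and at 8.96 and 9.20 TPM after GAFCP. The groups overlapped, and the log2 change of -0.06 ± 0.07 (SE) did not pass (limma adjusted p = 0.50).

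All 3 squalene genes fell, with a median log2 change of -0.83, beside 28.5% lower over all genes tested. Squalene synthase, Fdft1, commits farnesyl diphosphate to sterols. It was at 22.7, 25.7, 22.8 and 23.5 TPM in the control libraries and at 12.7 and 13.0 TPM after GAFCP (log2 change -0.83 ± 0.07 SE, adjusted p = 3.3e-05 by limma). Fdft1 and Ggps1 draw on the same substrate. The ratio of Fdft1 to Ggps1 within a library cannot be altered by a single scaling factor per library. This ratio was 2.50 ± 0.171 (SD, n = 4) in control libraries and 1.42 ± 0.00329 (SD, n = 2) with GAFCP, with an exact two-sided permutation p of 0.0667. This p is the smallest that the 15 arrangements of the libraries allow, so the design cannot reach 0.05, and it stayed at 0.0667 after Benjamini-Hochberg adjustment over the 3 ratios tested, which were chosen after their values were seen. Squalene epoxidase, Sqle, adds the oxygen needed for ring closure. Sqle was at 71.5, 73.6, 67.6 and 68.5 TPM in the control libraries and at 35.2 and 33.4 TPM after GAFCP (log2 change -1.01 ± 0.05 SE, adjusted p = 2.7e-06 by limma). Lanosterol synthase, Lss, closes the rings and averaged 12.9 ± 1.03 and 8.29 ± 0.121 TPM (SD), a change of -0.58. Relative to the keratins the Lss change was -0.18 and did not pass (limma adjusted p = 0.0665), and that of Pmvk was also -0.18 (limma adjusted p = 0.122). The median over all genes was 0.33 on that scale, and set against it both Lss and Pmvk lay at -0.51.

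All 9 late sterol genes fell, over a wide range from -1.52 to -0.22 and with a median of -0.45, beside 28.5% lower over all genes. Cyp51, the lanosterol demethylase, fell most of the 28 genes (chromosome 5, 4081145 to 4104746). It was at 62.8, 65.4, 58.5 and 63.0 TPM in the control libraries and at 21.9 and 20.3 TPM after GAFCP, or 33.8% of the control mean, and its log2 change was -1.52 ± 0.06 (SE; limma adjusted p = 6.3e-07). Msmo1, an oxidase that starts removal of the methyl pair at another ring position, was among the abundant genes. Msmo1 was at 127.1, 125.0, 118.0 and 118.0 TPM in the control libraries and at 53.2 and 55.7 TPM after GAFCP (log2 change -1.15 ± 0.05 SE, adjusted p = 9.3e-07 by limma). Nsdhl, the dehydrogenase that works with it, averaged 16.8 ± 0.710 and 9.12 ± 0.273 TPM (SD), a change of -0.82.

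Sterol reduction after demethylation is shared by Tm7sf2 and Lbr. Tm7sf2 was at 21.4, 21.1, 18.7 and 20.5 TPM in the control libraries and at 10.02 and 9.01 TPM after GAFCP (log2 change -1.03 ± 0.08 SE, adjusted p = 2.2e-05 by limma). Lbr, which also anchors heterochromatin at the nuclear envelope as the lamin B receptor, was at 26.8, 26.4, 25.1 and 25.9 TPM in the control libraries and at 21.4 and 23.1 TPM after GAFCP. Both treated libraries lay below every control, but only by a small margin, and the log2 change was -0.22 ± 0.06 (SE; limma adjusted p = 0.013). The Lbr call was lost without GAFCP library 1 (limma adjusted p = 0.134) and with control libraries 3 and 4 alone (limma adjusted p = 0.083). The ratio of Tm7sf2 to Lbr was 0.783 ± 0.0267 (SD, n = 4) in controls and 0.429 ± 0.0548 (SD, n = 2) with GAFCP, again with the smallest possible exact permutation p of 0.0667.

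The remaining 4 late enzymes also fell. Hsd17b7, the ketone reductase that completes removal of the methyl pair, had a mean of 9.44 ± 0.451 TPM (SD, n = 4) in control libraries and of 7.12 ± 0.753 TPM (SD, n = 2) after GAFCP. The isomerase Ebp averaged 59.6 ± 2.21 and 49.1 ± 3.24 TPM (SD), and the desaturase Sc5d 23.8 ± 1.54 and 17.2 ± 1.07 TPM (SD). Dhcr7, which reduces the last double bond of one branch to give cholesterol, averaged 21.4 ± 1.42 and 16.7 ± 0.193 TPM (SD). The log2 changes were -0.36, -0.27, -0.45 and -0.34 in that order. The call of Hsd17b7 was lost without GAFCP library 1 (limma adjusted p = 0.0873) and that of Ebp without GAFCP library 2 (limma adjusted p = 0.0567). Relative to the keratins, these 4 genes and Lbr had no called fall: Hsd17b7 was at 0.02, Sc5d at -0.03 and Dhcr7 at 0.08 on the log2 scale without passing, while Ebp at 0.15 and Lbr at 0.20 were called higher. Cyp51, Msmo1, Tm7sf2 and Nsdhl were called lower on that scale too, at -1.10, -0.72, -0.62 and -0.41. The late sterol genes then held 4 lower and 2 higher, beside 7.15% lower and 65.5% higher over all genes tested. The all-gene median was 0.33 there, and set against it Hsd17b7 lay at -0.31, Sc5d at -0.37 and Dhcr7 at -0.25.

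**Figure D3:**
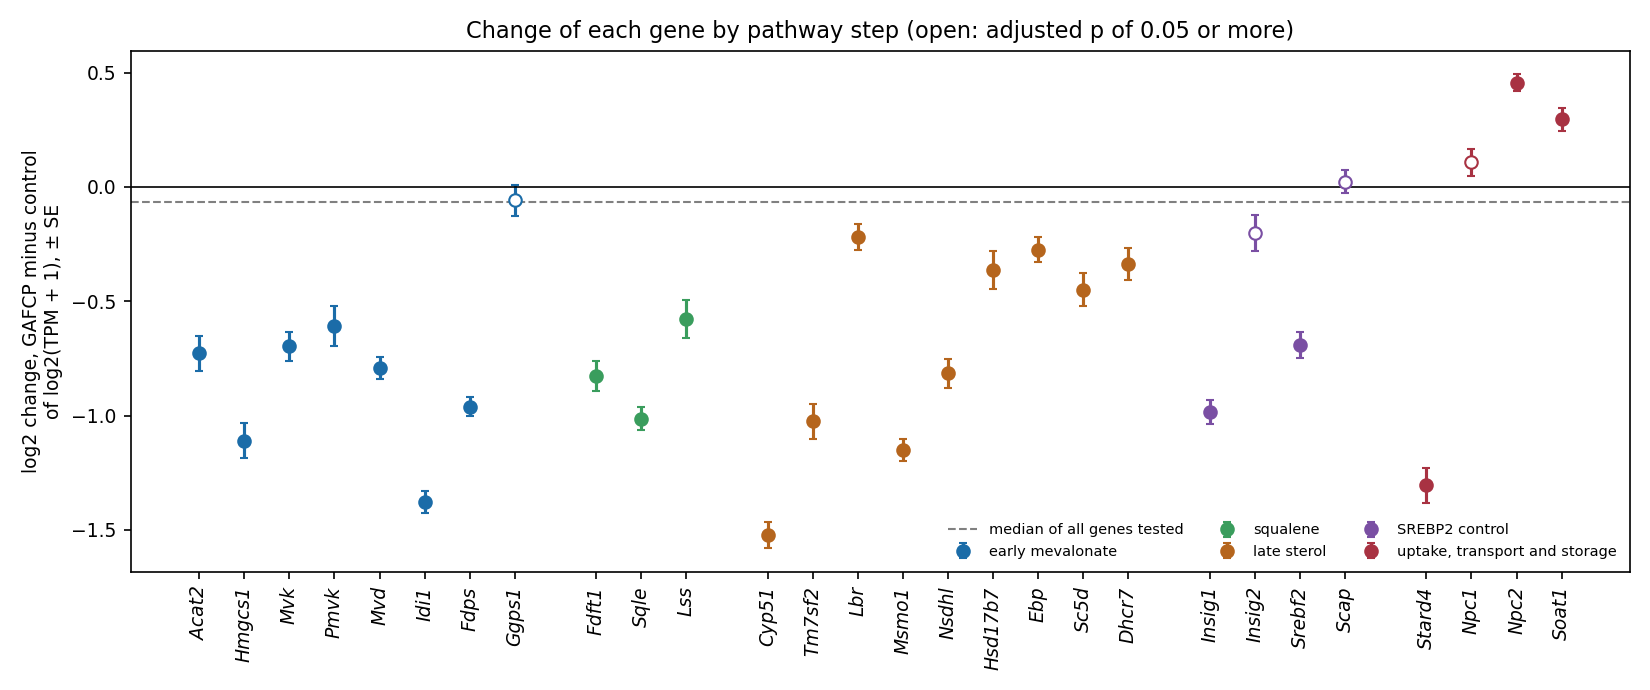
Log2 change of each gene, GAFCP minus control on log2(TPM + 1), with its SE, in pathway order; filled points passed an adjusted p of 0.05, and the dashed line is the median of all genes tested (-0.07). The synthesis genes run from -1.52 (Cyp51) to -0.06 (Ggps1), and Npc2 and Soat1 are the only filled points above 0.

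Among the 4 genes of SREBP2 control 2 fell and 2 did not pass. Over all genes tested 47.5% were called and 28.5% were lower, so this count alone sets the group little apart. Srebf2 itself (chromosome 15, 82147181 to 82205379) was at 111.0, 113.5, 99.3 and 111.0 TPM in the control libraries and at 67.0 and 66.7 TPM after GAFCP. The treated libraries were nearly equal and well below the lowest control, with the log2 change being -0.69 ± 0.06 (SE, adjusted p = 4.5e-05 by limma). Scap, the escort, was at 28.3, 29.0, 28.6 and 27.6 TPM in the control libraries and at 28.2 and 29.6 TPM after GAFCP, so that the groups overlapped (log2 change 0.02 ± 0.05, SE; limma adjusted p = 0.72).

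The INSIG genes encode related retention proteins, of which Insig1 is a known SREBP target. Insig1 (chromosome 5, 28071363 to 28078662) was at 43.3, 43.8, 41.1 and 42.8 TPM in the control libraries and at 22.0 and 20.2 TPM after GAFCP (log2 change -0.99 ± 0.05 SE, adjusted p = 4.2e-06 by limma). Insig2 was at 29.1, 27.5, 27.8 and 28.3 TPM in the control libraries and at 21.9 and 27.0 TPM after GAFCP. The treated libraries differed from each other, library 2 lying just under the lowest control, and the log2 change of -0.20 ± 0.08 (SE) did not pass (limma adjusted p = 0.071). Insig2 did pass without GAFCP library 2 (limma adjusted p = 0.0105) and with a robust variance model (limma adjusted p = 0.0443). The ratio of Insig1 to Insig2 was 1.52 ± 0.0518 (SD, n = 4) in controls and 0.876 ± 0.180 (SD, n = 2) with GAFCP (exact permutation p = 0.0667, the smallest possible), so Insig1 was the more abundant of the pair in every control and not in GAFCP library 2. The CCAAT boxes in capitals above occur in the searched windows of both genes, that of Insig2 being the most upstream of 3.

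Transport and storage genes went in different directions. Stard4, which carries cholesterol through the cytosol and is a known SREBP target, was at 20.5, 23.0, 19.5 and 20.9 TPM in the control libraries and at 8.17 and 7.57 TPM after GAFCP. At 37.6% of the control mean its fall was among the largest of the 28 genes, the log2 change being -1.31 ± 0.08 (SE, adjusted p = 6.4e-06 by limma). Npc2, the soluble lysosomal protein that hands cholesterol to NPC1, rose from 119.4, 125.3, 120.4 and 121.1 TPM in controls to 165.7 and 168.6 TPM, the log2 change being 0.46 ± 0.04 (SE, adjusted p = 3.2e-05 by limma). Its membrane partner Npc1 was at 40.2, 43.4, 38.1 and 39.97 TPM in the control libraries and at 43.0 and 44.2 TPM after GAFCP. GAFCP library 1 lay below control library 2, and the log2 change of 0.11 ± 0.06 (SE) did not pass (limma adjusted p = 0.17), though it did with median-of-ratios scaling (0.17, limma adjusted p = 0.00625) and quantile normalization (0.14, limma adjusted p = 0.0119). Soat1, which esterifies cholesterol for storage, rose from 48.9, 51.0, 46.3 and 48.9 TPM to 60.7 and 59.4 TPM, the log2 change being 0.30 ± 0.05 (SE, adjusted p = 0.0017 by limma). Both genes that rose are also expressed in macrophages, whose markers (sums of 1179.6 to 1239 TPM in controls, 3773 and 3775 TPM with GAFCP) were higher in the same libraries; their part in these rises was not tested.

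Genes next to the pathway had list medians nearer to 0. Their counts on TPM stand beside 28.5% lower and 19.0% higher over all genes tested. Of 12 genes for the SREBP proteases and the sterol-regulated degradation of enzymes 2 were lower and 0 higher, with a median log2 change of 0.02. The count depended on the scaling: it was 3 lower and 5 higher with median-of-ratios scaling, where 24.9% of all genes were lower and 25.2% higher, and 3 lower and 4 higher with quantile normalization, where these shares were 30.8% and 21.9%. The protease gene Mbtps1, which makes the first cut of SREBP2, fell by 0.47 and Erlin2, an adaptor of sterol-driven degradation, by 0.45. Of 15 genes of the branches to ubiquinone, dolichol and prenylated proteins 1 was lower and 5 higher (median 0.02). Among these Fnta, a farnesyltransferase subunit, changed by -0.48 and Rabggta, a Rab prenyltransferase subunit, by 0.35, and Coq2, an enzyme of ubiquinone synthesis, by 0.18. Of 13 genes of intracellular sterol transfer and esters 6 were lower and 1 higher (median -0.19), with Stard3 at -0.32, Scp2 at -0.44 and Osbp at -0.25. These small counts changed when single libraries were left out. The 5 higher nonsterol isoprenoid branches genes became 1 without control library 1 or control library 4. Over all genes the higher count went from 2606 to 2463 and 2363 in these fits. Fewer of the list were also higher without either GAFCP library, where fewer genes were called in all. The 6 lower genes of intracellular sterol transfer and esters became 3 without control library 1, 2 or 4. Over all genes the lower count went from 3909 to 3497, 3455 and 3335 in these fits. Fewer of this list were also lower without either GAFCP library, and its higher gene was lost there. Without control library 3 the site proteases and sterol-regulated degradation list had 4 lower and 1 higher, and the nonsterol branches 3 lower. Over all genes that fit gave 4641 lower and 2585 higher. Scaled to keratins, the 3 lists held 10, 13 and 10 higher genes and 0 lower, in a setting where 65.5% of all genes tested were called higher and 7.15% lower.

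Of 11 lipoprotein receptor and lysosomal genes 3 were lower and 3 higher (median -0.03), shares near those over all genes (28.5% lower and 19.0% higher). The scavenger receptor Olr1 rose by 1.497 on the log2 scale and the endocytic adaptor Dab2 by 0.86, while Lipa, the lysosomal lipase that frees cholesterol from its esters, changed by -0.73. Scaled to keratins, the lipoprotein receptors and lysosomal release list held 2 lower and 9 higher and the oxysterol enzymes 1 lower and 1 higher, beside 7.15% lower and 65.5% higher over all genes. Of 6 oxysterol enzymes 4 were tested, and 3 of these were lower (median -0.40). Ch25h, which makes the SREBP2 inhibitor 25-hydroxycholesterol, had a mean of 6.17 ± 0.438 TPM (SD, n = 4) in control libraries and of 4.22 ± 0.536 TPM (SD, n = 2) after GAFCP (log2 change -0.46; limma adjusted p = 0.0064). Cyp39a1, another oxysterol hydroxylase, changed by -0.76 and Hsd3b7, a dehydrogenase of bile acid synthesis, by -0.34.

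Fatty acid synthesis and desaturation genes, many of them driven by the related factor SREBP1, were mostly lower. Of 14 tested 12 were lower and 0 higher, with a median of -0.50, beside 19 lower and 0 higher of the 20 cholesterol synthesis enzymes (median -0.76). Over all genes tested 28.5% were lower and 19.0% higher. Scd2, a desaturase, changed by -1.04, Fads1 by -0.82 and Fads2 by -0.81. Srebf1, which encodes SREBP1, went from a mean of 75.9 ± 1.74 TPM to one of 67.2 ± 0.527 TPM (SD), a log2 change of -0.17 (limma adjusted p = 0.0082), where Srebf2 changed by -0.69. LXR and lipid efflux genes had 5 higher and 0 lower of 8 tested (median 0.57), in libraries where the macrophage markers were higher (all 19, median 1.64). Apoe, the apolipoprotein E gene, which macrophages also express, was at 537.3, 593.4, 546.9 and 551.3 TPM in control libraries and at 2818 and 2742 TPM in treated ones, and it rose by 2.32 ± 0.04 on the log2 scale (SE, adjusted p = 2.5e-08 by limma). The cholesterol exporter Abca1 had a mean of 3.32 TPM in control and 10.9 TPM in treated libraries, and Mylip, which marks lipoprotein receptors for degradation, 0.910 and 3.54 TPM. Without GAFCP library 2 fewer genes of the LXR and lipid efflux list were called higher, as over all genes, and a lower call appeared. Scaled to keratins, the fatty acid synthesis and desaturation list held 6 lower and 4 higher, beside 7.15% lower and 65.5% higher over all genes. Whether the fatty acid or efflux lists differ from the cholesterol genes was not tested.

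**Figure D4:**
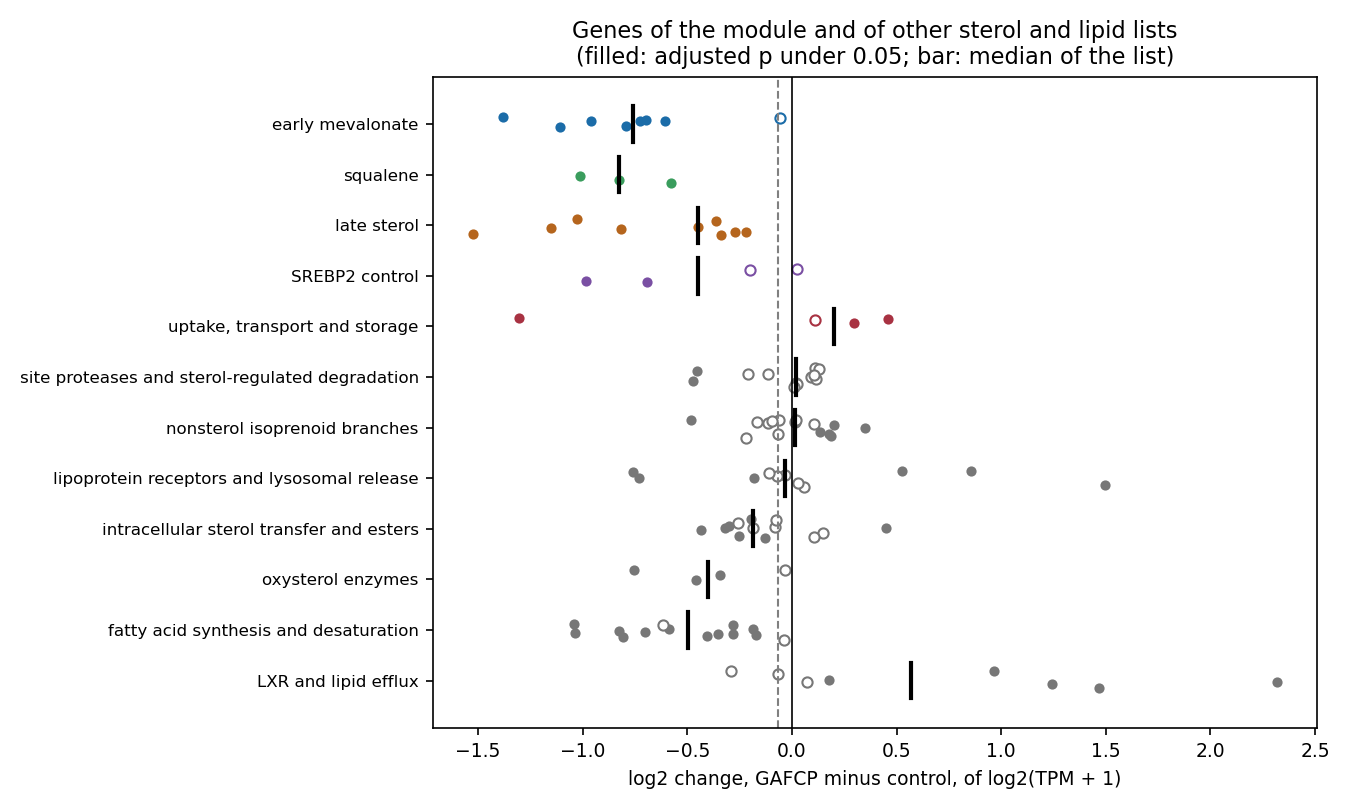
Log2 change, GAFCP minus control on log2(TPM + 1), of each tested gene in the 5 groups of the pathway (colored) and in 7 other sterol and lipid lists (grey); filled points passed an adjusted p of 0.05, black bars are list medians and the dashed line is the median of all genes. Every tested gene of the synthesis steps and of fatty acid synthesis lies left of 0, while the LXR and lipid efflux list has its median at 0.57 with 2 of its 8 tested genes left of 0.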

How the data were processed

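The authors deposited 1 table of TPM values for the 6 libraries. Per the submitters' processing notes it was made using Salmon and the mm10 build; no source used here states the version or the transcripts. TPM keeps no depth, so counting error is unknown. Sample titles gave the groups and replicate numbers. After the filter (1 TPM or more in 2 or more libraries), log2(TPM + 1) was tested in limma 3.58.1 (R 4.3.3; empirical Bayes, mean-variance trend, 4 residual degrees of freedom, two-sided), with Benjamini-Hochberg adjustment over all 13720 genes and calls under 0.05. The pseudocount of 1 shrinks changes of low genes. The script was tested on simulated data with far fewer changed genes than were called here, which checks the code and not these calls. The 28 genes, the other lists and the alternatives were chosen with earlier results of these data known. All 28 genes are named, with up to 3 called genes of each other list by smallest p and 6 markers. Krt7, Srebf1, Ncr1, Cldn4, Cdh1, Abcg1 and the ratios were picked after their values were seen. Other genes of the pathway are not analysed here. Gene positions come from GENCODE M21 (GRCm38) and promoter windows from RefSeq (GRCm38.p6). Alternatives changed the pseudocount, filter, scaling, variance model, control libraries, replicate block and each library in turn.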

Additional observations from a re-analysis of the deposited data

How the results depend on the processing

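Each of the 28 genes was refitted under 18 alternatives, and 484 of the 504 values kept their direction and their side of the threshold; 17 genes did so under every one. Leaving out 1 library at a time gave 20 to 22 lower genes among the 28, 2 higher in each case, a median change of -0.72 to -0.68, and 4258 to 7226 genes called in all, where a single GAFCP library was left its variation was taken to be that of the controls; the change of Scap ran from -0.011 (without GAFCP library 2) to 0.058 (without GAFCP library 1). The median change was -0.62 with a pseudocount of 5 and -0.63 with median-of-ratios scaling. Scaling to keratins called 10009 genes, 985 lower and 9024 higher, and gave 15 lower and 8 higher of the 28 with a median of -0.27; it turned Ggps1 to 0.34, Lbr to 0.20, Hsd17b7 to 0.024, Ebp to 0.15, Dhcr7 to 0.077 and Insig2 to 0.22, since it adds nearly the same amount to every gene. On that scale 4 late sterol genes were lower and 2 higher. Of the other lists, the nonsterol isoprenoid branches had 3 higher genes with no filter and 2 without the variance trend. They had 2 with control libraries 1 and 2 alone and 1 with the replicate block. Over all genes 2769, 2499, 2334 and 2128 were higher in these fits, in that order, against 2606. Intracellular sterol transfer and esters had 2 higher with median-of-ratios scaling or quantile normalization, where 3460 and 3001 genes were higher in all. It had 2 lower with control libraries 3 and 4 alone, where 2904 genes were lower in all, against 3909. LXR and lipid efflux had 3 higher where a mean of at least 5 TPM was required and 1972 genes were higher in all. Abcg1 (means of 1.24 and 3.39 TPM in control and GAFCP libraries) and Mylip (0.910 and 3.54 TPM) did not pass that filter. Control libraries 3 and 4 alone gave 21 lower genes of the 28, in the fit with 2904 lower over all genes. Control and GAFCP libraries with equal replicate numbers had nearly uncorrelated deviations (-0.01 and -0.02). The deviations of the 2 GAFCP libraries mirror each other, so these values cannot show whether samples were paired. With the replicate block 5894 genes passed, with 22 lower and 2 higher of the 28 and a median of -0.70. The depth of the libraries is unknown and only 2 GAFCP libraries limit every comparison.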
